A study of Mus musculus with 16 samples.

Results

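The serotonin receptor genes of the lumbar spinal cord are described here in mice that carry a SOD1G93A transgene, a model of amyotrophic lateral sclerosis, and in their wild-type controls. The members were the 10 genes Htr1a, Htr1b, Htr1d, Htr2a, Htr2b, Htr2c, Htr3a, Htr3b, Htr4 and Htr7, found by their gene name on the array, out of 27962 gene names in all. They were represented by 14 of the 41174 probes. The genes were selected on their difference between 40 and 80 days and on their detection above background, so that both of these are given as descriptions without a test, whereas the difference between the genotypes within an age did not enter the choice and was tested. How the genotype difference of a receptor varied between the ages is built from the age differences too, and is likewise given as a value without a test.

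The data comprised 16 two-colour arrays, with 4 arrays from each of 4 groups, which were WT (non-transgenic) mice of 40 days, SOD1G93A mice of 40 days, WT mice of 80 days and SOD1G93A mice of 80 days. All mice were males of the B6SJL background, and both ages are preclinical in this colony. The transgene is a mutated human SOD1 gene present in many copies and expressed in many cell types beside the mouse's own Sod1 gene, so that it is not a model restricted to motor neurons. Each array carried Cy3-labeled RNA of the whole lumbar cord together with Cy5-labeled RNA of a pool of neonatal heart, kidney and liver from both genotypes, which served as the common reference. The labels call the samples biological replicates. Every group lay at its own fixed position on the slides, and every slide held 1 array of each group, so that position and group cannot be told apart.

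Serotonin reaches the spinal cord through fibers that descend from the raphe nuclei of the brainstem, where the cell bodies of the serotonergic neurons lie. It sets the excitability of motor neurons, the gain of the locomotor circuits and the transmission of sensory signals in the dorsal horn. Its receptors fall into classes by their signal. Htr1a, Htr1b and Htr1d encode receptors that couple to inhibitory Gi/o proteins. Htr2a, Htr2b and Htr2c encode receptors that act through Gq proteins and phospholipase C. Htr4 and Htr7 encode receptors that raise cyclic AMP through Gs proteins. Htr3a and Htr3b encode subunits of a cation channel opened by serotonin, which needs the Htr3a subunit to work.

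The probes that carry the measurements below are 60 bases long, and the first 30 bases of each are shown 5′ to 3′ in lower case, without capitals since no stretch of them is singled out. Positions follow the array annotation, which uses the mouse build mm7. No gene models of that build were used here, so exon and UTR are not given. The 3 Htr2c probes are shown because they disagreed, and the Htr3a and Htr7 probes because they were detected on nearly all arrays.
Htr2c A_52_P487454: ccgtatcgatgtaaggcagagaaactgata
Htr2c A_51_P370810: ctgctcattcacacacgtaaactcagtaag
Htr2c A_52_P164255: aacaagttctccaaatgcataatggaattg
Htr3a A_51_P175988: gcattgtcttccctatcatggctttaaagc
Htr7 A_51_P101065: aagtaatgcagaacagggggaaacaacgaa
The Htr2c probes lie on the plus strand at chrX:141860922-141860981 for A_52_P487454, at chrX:141859426-141859486 for A_51_P370810 and at chrX:141741642-141741701 for A_52_P164255. The probes A_51_P370810 and A_52_P487454 start 1496 bases apart, while A_52_P164255 starts 117784 bases before A_51_P370810. The Htr3a probe lies on the minus strand at chr9:48871598-48871657, and the Htr7 probe on the minus strand at chr19:35660959-35661018. The GC content of the probes was 43.3%, 40.0% and 26.7% for the Htr2c probes in the order shown, 38.3% for Htr3a and 45.0% for Htr7. None of the 14 member probes shared a run of 20 bases, on either strand, with any other of the 41174 probes.

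Detection separated the receptors into a few transcripts that were seen on nearly every array and a majority that were not. A spot counts as well above background when the scanner software marks its Cy3 signal as clearly brighter than its local surrounding. Htr2c probe A_52_P487454 and the Htr3a probe passed this mark on all 16 arrays, and the Htr7 probe passed it on 15, the exception being replicate 2 of WT at 40 days. Another 4 probes, those of Htr1a, Htr2a and 1 each of Htr2b and Htr2c, passed it on 1 to 7 arrays. The remaining 7 probes passed it on 0 arrays, and 4 genes (Htr1b, Htr1d, Htr3b and Htr4) had no probe that passed on any array. When 3 or more arrays of any group had to carry the mark, 4 probes of 3 genes were left. The closest to this limit were Htr2c probe A_51_P370810, with 3 of 4 arrays of SOD1G93A at 40 days, and, below it, Htr2a with 2 of 4 arrays of WT at 40 days. A probe under the mark gives only an upper bound of its transcript and does not show that the receptor is absent.

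**Figure D1:**
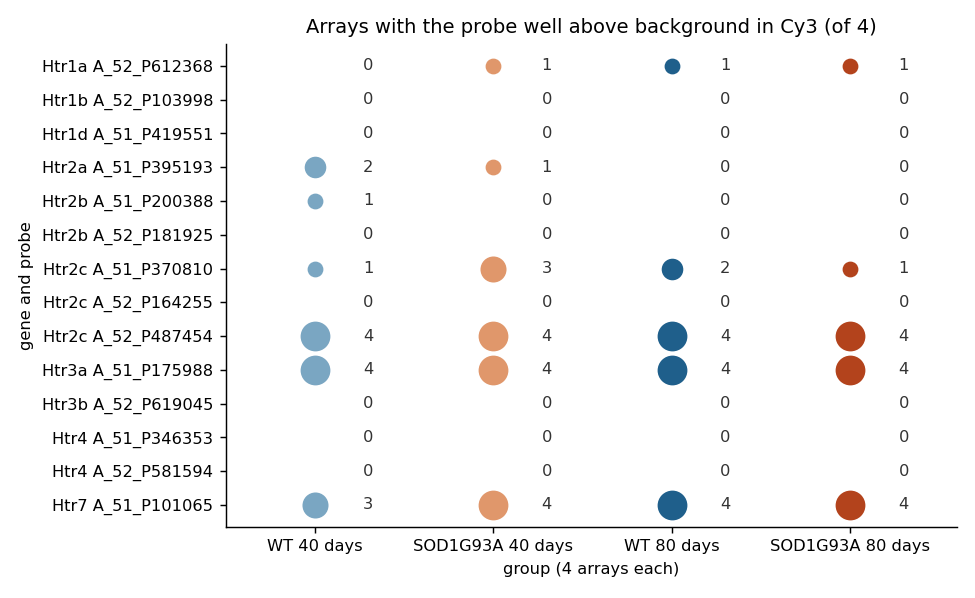
Number of arrays, of 4 in each group on the horizontal axis, on which each of the 14 serotonin receptor probes on the vertical axis was well above background in Cy3. The size of a circle and the figure beside it give the count; Htr2c probe A_52_P487454, Htr3a and Htr7 reach 3 or 4 arrays in every group, and 7 probes stay at 0.

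Htr2c, whose Gq-coupled receptor enhances persistent inward currents of motor neurons and whose RNA is edited, was the clearest of the Gq group. On probe A_52_P487454 the Cy3 signal above the local background ran from 133 to 196 units over the 16 arrays, while the Cy5 signal of the reference ran from 5.5 to 20 units and was not well above background on any array. The log2 ratio of cord over reference was 3.50, 3.11, 3.58 and 3.18 in WT at 40 days and 3.73, 3.33, 3.20 and 3.79 in SOD1G93A at 40 days. At 80 days it was 3.35, 3.51, 3.08 and 3.34 in WT and 3.57, 3.35, 3.47 and 3.21 in SOD1G93A. All 4 groups overlapped, and no group stood apart. The group means were 3.34 ± 0.23, 3.51 ± 0.29, 3.32 ± 0.18 and 3.40 ± 0.16 (SD, n = 4) in the same order. Since the reference was not well above background, the cord level was at least 8.79-fold, 9.77-fold, 9.42-fold and 9.18-fold higher than the reference in these groups. Such a bound sets the mean Cy3 level against, on each array, the higher of the lowest Cy5 signal among probes well above background and the Cy5 signal of the probe itself, and it is open to dye bias because dyes were not swapped.

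The SOD1G93A arrays differed from WT on probe A_52_P487454 by 0.18 (95% confidence interval -0.16 to 0.52) on the log2 scale at 40 days, with limma p = 0.273, adjusted p = 0.997 and a two-sided exact permutation p of 0.371 for 4 against 4 arrays. At 80 days the difference was 0.079 (-0.15 to 0.31), with limma p = 0.467, adjusted p = 0.883 and exact permutation p = 0.543. Both intervals leave room for a change of either sign. Between the ages the probe differed by -0.021 in WT and -0.12 in SOD1G93A, and the genotype difference varied between the ages by -0.098. With bright local backgrounds kept these age differences were 0.39 and 0.23, and with the processed signals of the scanner software 0.62 and -0.017.

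**Figure D2:**
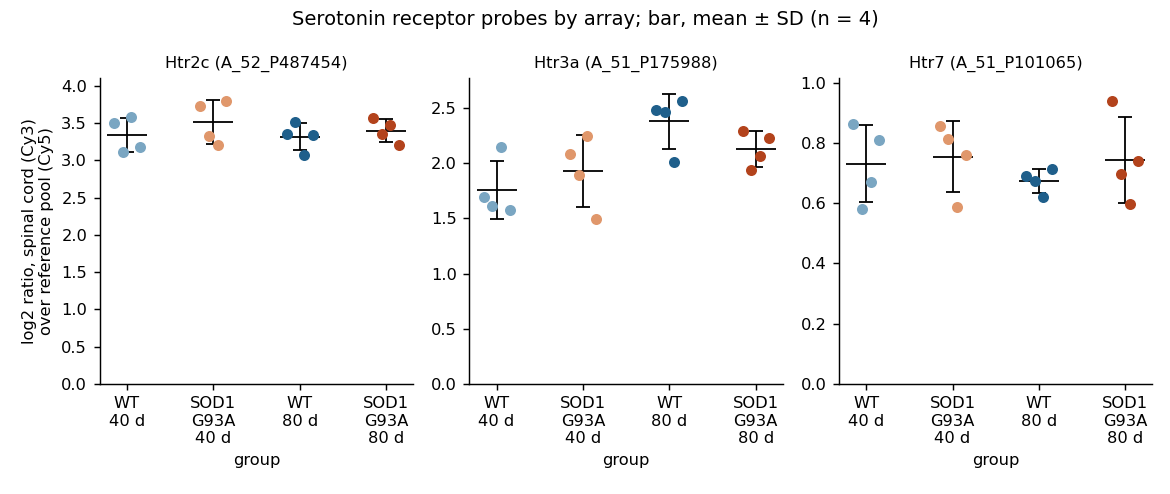
Log2 ratio of spinal cord (Cy3) over the reference pool (Cy5) for Htr2c probe A_52_P487454, Htr3a and Htr7 in the 4 groups, each point 1 array and each bar the mean ± SD of 4 arrays. The groups overlap for each gene; the WT mean of Htr3a is 1.76 at 40 days and 2.38 at 80 days, whereas those of Htr2c and Htr7 lie close together.

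The other Htr2c probes did not give the same picture. Probe A_51_P370810 was well above background on 1, 3, 2 and 1 arrays of WT at 40 days, SOD1G93A at 40 days, WT at 80 days and SOD1G93A at 80 days, with 10 to 19 units over background, and its log2 ratios ran from 0.14 to 0.51. Probe A_52_P164255, with the lowest GC content, was above background on 0 arrays and had -1 to 10 units. Htr2c was thus detected on all arrays by only 1 of its 3 probes. A_51_P370810 entered the comparison at 40 days through SOD1G93A alone, the group in which its mean was highest, so its genotype difference of 0.037 (-0.15 to 0.23) there is given without a test, and it did not pass the filter at 80 days.

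**Figure D3:**
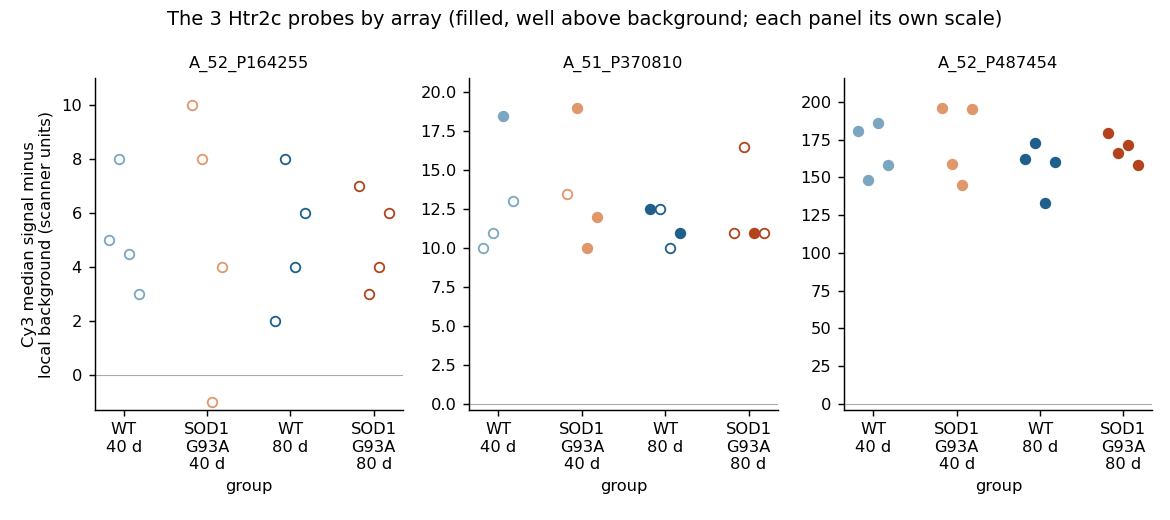
Cy3 median signal minus local background, in scanner units, of the 3 Htr2c probes on each array, by group, each panel on its own scale since levels of different probes cannot be set against each other. Filled points are arrays on which the probe was well above background: none for A_52_P164255, 7 for A_51_P370810 and all 16 for A_52_P487454.

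The choroid plexus is known for its high Htr2c level, so its markers are given beside the gene. Of 5 markers, the defining ones Ttr and Otx2 were well above background in the cord on 0 arrays, while Kl was on 14, Folr1 on 13 and Clic6 on 16. In the reference, which holds neonatal liver, the Ttr probe was well above background on only 7 arrays and that of Otx2 on 0. Their counts in the cord therefore give only an upper bound and do not show that these cells were absent. At 80 days Kl was -0.19 in SOD1G93A relative to WT (limma p = 0.0093, adjusted p = 0.673, exact permutation p = 0.0286), and the other 2 tested markers did not pass the test. The part of these cells in the Htr2c level was not tested.

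Htr3a, the subunit that the serotonin-gated channel cannot do without, had the widest range over the arrays among the receptor probes that were detected nearly throughout. Its log2 ratios were 1.69, 1.61, 2.15 and 1.58 in WT at 40 days and 2.48, 2.47, 2.01 and 2.56 in WT at 80 days. Replicate 3 was the highest array at 40 days and the lowest at 80 days, and through it alone the ages of WT overlapped. In SOD1G93A the ratios were 2.08, 1.89, 2.25 and 1.49 at 40 days and 2.29, 1.94, 2.06 and 2.23 at 80 days, with clear overlap. The means were 1.76 ± 0.26 and 2.38 ± 0.25 for WT and 1.93 ± 0.32 and 2.13 ± 0.16 for SOD1G93A (SD, n = 4), so that Htr3a was 0.62 higher at 80 than at 40 days in WT and 0.20 higher in SOD1G93A. As the age difference took part in the choice of the genes, these values are a description. The WT difference was 0.75 without replicate 3 at either age, but 0.24 without normalization within arrays and -0.030 from the processed signals of the scanner software, and in SOD1G93A these last 2 settings gave -0.027 and -0.41.

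The genotypes differed in Htr3a by less than the test required. At 40 days SOD1G93A was 0.17 above WT (-0.20 to 0.55; limma p = 0.333, adjusted p = 0.997, exact permutation p = 0.429). At 80 days SOD1G93A was lower by a log2 change of -0.25 (-0.53 to 0.026; limma p = 0.0716, adjusted p = 0.734, exact permutation p = 0.171), and the arrays of both genotypes overlapped. The difference between these changes was -0.42, as a value. Within slides, SOD1G93A minus WT was 0.39, 0.29, 0.10 and -0.087 at 40 days and -0.19, -0.53, 0.051 and -0.34 at 80 days on slides 1 to 4, so that 3 of 4 slides were higher at the first age and 3 of 4 lower at the second. The change at 80 days lay close to the threshold: it was negative in 18 of 19 alternatives, in 6 of which the unadjusted limma p was under 0.05, and turned to 0.13 with the processed signals; the lowest adjusted p in any of them was 0.537. It passed the unadjusted threshold at -0.37 without replicate 3 of WT (limma adjusted p = 0.537), at -0.31 without replicate 1 of SOD1G93A (limma adjusted p = 0.621) and at -0.25 with the slide as a block (limma adjusted p = 0.624).

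**Figure D4:**
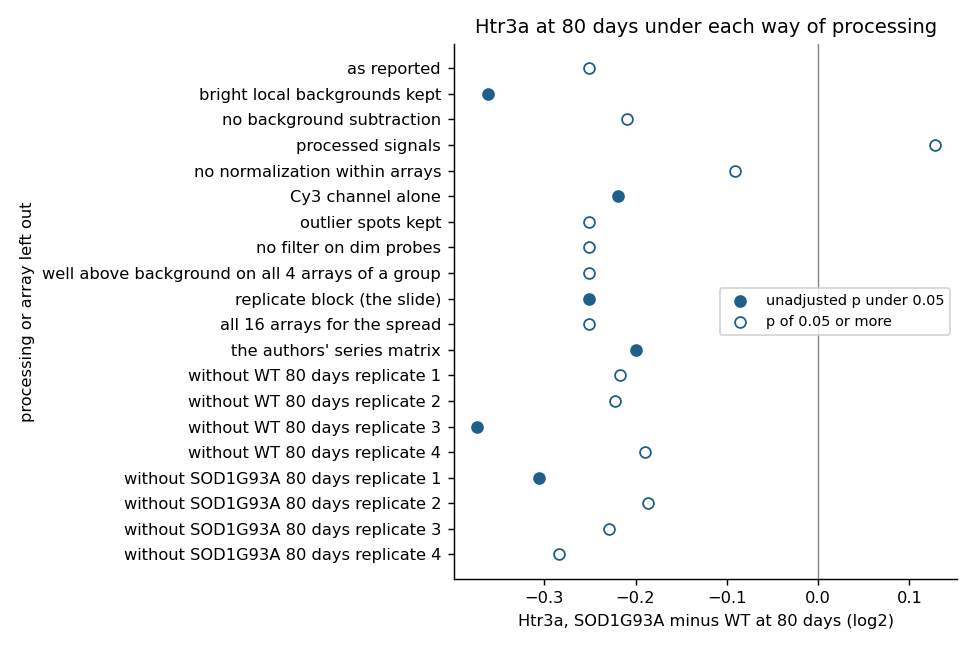
Log2 difference of Htr3a between SOD1G93A and WT at 80 days (horizontal axis) as reported and under each other way of processing or with 1 array left out (vertical axis), filled where the unadjusted limma p was under 0.05. The value is -0.25 as reported, lies between -0.37 and -0.091 in 18 alternatives and is 0.13 with the processed signals.

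In Cy3 alone the Htr3a signal above background was 63 to 88 units in WT at 40 days, 52 to 90.5 in SOD1G93A at 40 days, 79 to 127 in WT at 80 days and 79.5 to 108 in SOD1G93A at 80 days. The reference was well above background on 9 of 16 arrays, at least 1 in each group, with a Cy5 signal between 27 and 93 units. Htr3a is made by interneurons of the dorsal horn and by sensory neurons. Of the markers of dorsal horn and inhibitory interneurons, 6 of 8 were well above background on all 16 arrays and Lmx1b and Pax2 on 0. Their summed Cy3 level, which includes an offset of 50 units for each probe, ranged from 42373 to 51275 units in WT at 40 days, 39245 to 55699 in SOD1G93A at 40 days, 46016 to 52756 in WT at 80 days and 41531 to 57775 in SOD1G93A at 80 days. The median difference of the list between 80 and 40 days was 0.26 in WT and 0.095 in SOD1G93A. Slc6a5 of this list went the other way, with -0.16 in WT and -0.31 in SOD1G93A. The median genotype difference was 0.10 at 40 days and -0.10 at 80 days, and 0 of 6 tested genes passed the test in either direction at either age. These signs were not particular to the list. The medians were 0.095 and -0.056 for the neuronal markers and 0.12 and -0.058 for the astrocyte markers, but -0.10 and -0.027 for the motor neuron markers. Within the interneuron list, Slc17a6 was -0.070 at 40 days and Slc32a1 was 0.055 at 80 days. Of the sensory neuron markers, Avil was well above background on 0 arrays, Scn10a and Scn11a on 1 and P2rx3 on 6. In whole cord, fewer cells of a type and less RNA per cell cannot be told apart, and the part of these cells in the Htr3a values was not tested.

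Htr7, the Gs-coupled receptor that takes part in locomotor rhythm, was dim but steady. Its Cy3 signal was 18 to 31 units above background, and its log2 ratios were 0.86, 0.58, 0.67 and 0.81 in WT at 40 days and 0.86, 0.81, 0.59 and 0.76 in SOD1G93A at 40 days. At 80 days they were 0.69, 0.67, 0.62 and 0.71 in WT and 0.94, 0.70, 0.60 and 0.74 in SOD1G93A. Again all groups overlapped. The means were 0.73 ± 0.13, 0.75 ± 0.12, 0.67 ± 0.040 and 0.74 ± 0.14 (SD, n = 4). The reference was not well above background on any array, with a Cy5 signal of 12.5 to 34 units. Its level still lay above the lowest Cy5 level among probes well above background, so no bound is given. After normalization the cord was 1.66-fold, 1.69-fold, 1.60-fold and 1.67-fold the reference in the same order, and these ratios are open to dye bias. The genotype difference was 0.023 (-0.16 to 0.20; limma p = 0.782, adjusted p = 0.997, exact permutation p = 0.83) at 40 days and 0.069 (-0.10 to 0.24; limma p = 0.386, adjusted p = 0.858, exact permutation p = 0.429) at 80 days. Between the ages Htr7 differed by -0.057 in WT and -0.011 in SOD1G93A, by 0.064 and 0.073 with bright local backgrounds kept, and by 0.55 and 0.054 with the processed signals.

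The Gi/o-coupled receptors were at the edge of detection. Htr1a, which also serves as the autoreceptor of serotonergic neurons, was well above background on 3 arrays, 1 in each group other than WT at 40 days, with 8 to 17 units and log2 ratios of 0.14 to 0.42. Htr1b and Htr1d, found on axon terminals, were above background on 0 arrays in Cy3, with 2 to 10 and 5 to 10 units. For comparison, the median of the negative control spots was 3 to 6.5 units over the arrays. The level that 1 in 40 of these spots exceeded was 6.2 to 36 units, and Htr1a was above it on 7 of 16 arrays. None of the 3 genes passed the filter, so none was tested. The group means of Htr1a lay between 0.24 and 0.29, with SDs of 0.049 to 0.14.

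Among the other Gq-coupled receptors, Htr2a, a receptor of motor neurons, was well above background on replicates 2 and 3 of WT at 40 days and on replicate 2 of SOD1G93A at 40 days, and on 0 arrays at 80 days. Its log2 ratios were 0.05, 0.23, 0.12 and 0.15 in WT at 40 days and -0.06, 0.29, -0.05 and -0.04 in SOD1G93A at 40 days. At 80 days they were -0.02, 0.07, -0.13 and 0.11 in WT and -0.01, -0.02, 0.10 and 0.29 in SOD1G93A. Replicate 2 of SOD1G93A at 40 days stood above the other 3 arrays of its group, and the ages overlapped in both genotypes. Htr2a was above the level that 1 in 40 negative control spots exceeded on 0 of 16 arrays, so no loss of detection with age is read from these marks. The Htr2a probe lies at chr14:69326875-69387312 on the plus strand, a genomic span far longer than its 60 bases, so that its ends lie apart in the genome. Htr2b, a receptor best known from heart and vessels, had a probe (A_51_P200388) above background in Cy3 on 1 array, replicate 2 of WT at 40 days, and a second (A_52_P181925) on 0 arrays. The second was well above background in the Cy5 reference on 13 arrays, with 64.5 to 115.5 units there against 4.5 to 11.5 units in the cord, and its log2 ratios ran from -0.33 to -0.02, below 0 on all 16 arrays.

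The last members, Htr3b, the second channel subunit, and Htr4, a Gs-coupled receptor, were not well above background on any array. The Htr3b probe had 1 to 12 units and log2 ratios of -0.14 to 0.19, and the 2 Htr4 probes had 2.5 to 8 and 2.5 to 6.5 units. In the Cy5 reference, too, both genes were above background on 0 arrays. The log2 ratios of Htr3b were 0.07, 0.07, 0.16 and 0.19 in WT at 40 days and 0.03, -0.13, -0.05 and 0.04 in SOD1G93A at 40 days. At 80 days they were 0.12, -0.01, -0.06 and 0.05 in WT and -0.14, -0.12, -0.14 and -0.09 in SOD1G93A. By these ratios the SOD1G93A arrays lay below the WT arrays at both ages, without overlap, although both genotypes were under the detection mark. In Cy3 alone the genotypes overlapped at both ages. The mean log2 Cy3 level was 5.96 in WT and 5.83 in SOD1G93A at 40 days, and 5.87 and 5.83 at 80 days. For the Cy5 reference it was 5.83 and 5.86 at 40 days, and 5.84 and 5.96 at 80 days. The reference thus took part in the separation at 80 days. Without the filter the difference of the ratios was -0.15 at 40 days (-0.28 to -0.025; limma adjusted p = 0.936) and -0.15 at 80 days (-0.26 to -0.034; limma adjusted p = 0.811). Htr3b was the only one of the 14 receptor probes whose log2 ratios did not overlap between the genotypes, at either age. The share over all probes without a filter was 2.9% of 40879 at 40 days and 3.59% of 40952 at 80 days. It was singled out after its values were seen, and no fold is given since both groups were not well above background.

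Over all members, 0 of the 3 probes counted at 40 days passed an unadjusted limma p of 0.05, against 4.51% of all 21336 probes tested. At 80 days 0 of the 3 tested passed, against 6.86% of 21601. The count at 40 days leaves out A_51_P370810 of Htr2c, which had passed the filter through SOD1G93A alone. Over all 21951 probes, 6.72% passed for the difference of the genotype change between the ages, and nothing is read from the 0 of 4 receptor probes there. With so few probes a count of 0 does not set the receptors apart from the background. After Benjamini-Hochberg adjustment, limma called 0 of all probes in each of these 3 comparisons, where 963, 1482 and 1475 had an unadjusted p under 0.05. Between the ages, 0 of 3 receptor probes that passed the filter in WT and 0 of 4 in SOD1G93A had arrays that did not overlap, where the share over all probes was 7.73% and 12.6%. Since the age difference took part in the choice of the genes, nothing is read from these last counts.

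**Figure D5:**
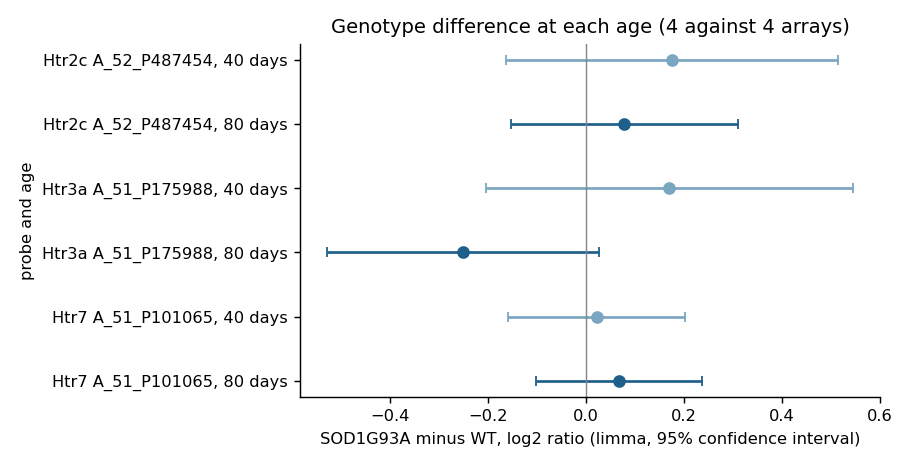
Difference between SOD1G93A and WT (horizontal axis, log2 ratio, limma estimate with 95% confidence interval, 4 against 4 arrays) of Htr2c probe A_52_P487454, Htr3a and Htr7 at 40 and 80 days (vertical axis). Every interval includes 0; that of Htr3a at 80 days, from -0.53 to 0.026, reaches it only at its upper end.

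The pathway around the receptors was examined with fixed lists, against the 4.51% of all probes at 40 days and 6.86% at 80 days that passed the unadjusted threshold. Nothing particular to a list is read from a single gene past it. Of the 4 serotonin receptor genes outside the member list, Htr5b was well above background on 5 arrays, Htr1f and Htr5a on 1 and Htr6 on 0. Htr5b alone passed the filter, at 80 days. With 5 arrays in all it can have passed through only 1 genotype, so its genotype difference of -0.042 is given without a test. Of the 5 genes of serotonergic neuron identity, the transporter Slc6a4, the vesicular transporter Slc18a2 and the transcription factor Lmx1b were above background in the cord on 0 arrays, the rate-limiting enzyme Tph2 on 1 and the transcription factor Fev on 3. Slc6a4 and Slc18a2 were above background in the reference on all 16 arrays. The summed Cy3 level of Tph2, Slc6a4, Slc18a2 and Fev was between 334 and 417 units over all arrays on the same scale.

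Of the 11 genes of serotonin synthesis, storage, uptake and breakdown, 5 were well above background on all 16 arrays (Ddc, Qdpr, Slc29a4, Maoa and Maob) and were tested. At 40 days 0 of 5 passed the test, and at 80 days 1 was higher and 0 lower. The gene past the threshold was Qdpr, which regenerates the cofactor tetrahydrobiopterin of the hydroxylases. It had means of 2.74 ± 0.092 in WT and 2.94 ± 0.015 in SOD1G93A at 80 days (SD, n = 4), a change of 0.20 with a standard error of 0.062 (limma p = 0.0088, adjusted p = 0.667, exact permutation p = 0.0286). Its change differed between the ages by 0.24 (limma p = 0.017, adjusted p = 0.705, exact permutation p = 0.0171). Maoa and Maob, the monoamine oxidases that break serotonin down, were at -0.0036 and 0.023 at 80 days and did not pass the test. All 7 genes of receptor partners, assembly and RNA editing were above background on all 16 arrays. At 40 days 0 of 7 passed and at 80 days 1 was higher and 0 lower. That gene was Dlg4, the postsynaptic scaffold that binds several of the receptors, with 0.20 (limma p = 0.0486, adjusted p = 0.723, exact permutation p = 0.0571). Mpdz, a multi-PDZ scaffold that binds the Htr2c receptor, was -0.044 at 40 days and 0.16 at 80 days, and the difference between these, 0.20, passed the unadjusted threshold (limma p = 0.0288, adjusted p = 0.715, exact permutation p = 0.0204). The editing enzymes Adar and Adarb1 were at 0.046 and 0.0019 at 80 days (exact permutation p = 0.686 and p = 0.971), and Ric3, a chaperone of channel assembly, was at 0.012 (exact permutation p = 0.971).

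The probes most like the 3 brightest receptor probes over the 16 arrays were sought among 21765 probes, by the Pearson correlation of log2 ratios, as a description only, since all arrays share 1 reference and the normalization. For Htr2c they were Nr2c1 (r = 0.82), Sowaha (r = 0.81) and Ncbp1 (r = 0.80). For Htr3a they were a probe that the files name NAP051793-1 (r = 0.90), Ovgp1 (r = 0.87) and Rsbn1 (r = 0.83). For Htr7 they were Ccdc6 (r = 0.82), Zc3h13 (r = 0.81) and Nrg1 (r = 0.81).

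Across the series, 46.1% to 55.3% of probes were well above background in Cy3 and 57.1% to 70.0% in Cy5. Arrays of a group correlated at 0.976 to 0.992, and no 2 arrays were identical. The 8 neuronal markers were well above background on all 16 arrays; 1 of them, the synaptic vesicle protein Syt1, was past the unadjusted threshold at 80 days, with -0.33 (limma p = 0.041, adjusted p = 0.718, exact permutation p = 0.114). Of 6 motor neuron markers, 4 were on all 16 arrays and Chat, by its brightest probe, on 0, although the acetylcholine transporter Slc18a3 was detected throughout.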

How the data were processed

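Spots were extracted with Agilent Feature Extraction 9.5.3.1 per the labels. The authors deposited the spot intensity values of both channels on a linear scale, not normalized, and a matrix of log2 values that they had normalized within and between arrays. The latter follows Cy3 and was normalized for each age apart.

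The median signals were turned into log2 ratios, Cy3 over Cy5, in R 4.3.3 with limma 3.58.1 and version 1.17.8 of data.table. Python 3.11.15 with matplotlib 3.10.9 served for plots. Local backgrounds over 20 units brighter than their spot were set to the array's median background. Signals were then corrected with normexp (offset 50), normalized by loess within and Aquantile between arrays, and 107 to 301 outlier spots of each array were dropped. Tests covered probes with a mark of being well above background on 3 or more arrays in any group and with values for 2 or more arrays in every group. Genotypes were compared with lmFit and eBayes on the 8 arrays of an age, and their difference on all 16, at an unadjusted p under 0.05, the threshold that the methods state, with Benjamini-Hochberg values beside. Exact permutation over 70 relabellings can reach a two-sided p of 0.0286 at the lowest; 4900 relabellings served for the difference between ages, which is not tested for the receptors since it shares values with their choice. The small number of arrays limits the precision. The fit was tested on simulated data. All member probes are named; of the other lists, genes with an unadjusted p under 0.05 in a genotype comparison and those that define the list, by their brightest Cy3 probe. The members and lists were chosen with earlier results of these data known. Symbols were updated through RefSeq accessions for 22951 probes, and 8455 kept the name in the files.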

Additional observations from a re-analysis of the deposited data

Results flagged for a closer look

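In 56 sets of 4 arrays, 1 for each receptor probe and group, 4 held an array whose gap to the nearest other array was most of the range of the group; chance gives such a gap in about 1 of 20 sets. Htr2a in SOD1G93A at 40 days had a log2 ratio of 0.29 on replicate 2, with the other 3 arrays between -0.062 and -0.045. Htr2c probe A_51_P370810 had 0.51 on replicate 2 of SOD1G93A at 40 days, with the others between 0.22 and 0.26, and 0.34 on replicate 2 of SOD1G93A at 80 days, with the others between 0.14 and 0.16. Htr4 probe A_51_P346353 had 0.043 on replicate 1 of SOD1G93A at 80 days, with the others between -0.082 and -0.070, and was not well above background on any array.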

How the results depend on the processing

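At 40 days the number of receptor probes past an unadjusted limma p of 0.05 was 0 as reported and 1 without the filter on dim probes (Htr3b, never above background). With processed signals the genotype difference of Htr2c A_51_P370810 was 1.48. That probe had passed the filter through SOD1G93A alone, so it is not counted here and its value is given without a test. At 80 days it was 0 as reported and 1 with bright local backgrounds kept, with Cy3 alone, in the matrix of the authors and with the slide as replicate block (Htr3a each time), and 1 (Htr3b) without the filter. The difference of the genotype change between the ages is not counted for the receptors, since it shares values with their choice. As a value, it was -0.050 for Htr2c A_51_P370810 as reported and -2.31 with processed signals. Leaving out arrays gave 0 genotype calls at 40 days and 0 to 1 at 80 days. Between the ages, WT went from 0 to 1 with bright backgrounds kept (Htr3a) and 0 to 1 when arrays were left out. SOD1G93A went from 0 to 1 with processed signals (Htr3a) or without the filter (Htr1b), and 0 to 1 when arrays were left out. These are counts of probes whose ages did not overlap. The share over all probes was 7.73% in WT and 12.6% in SOD1G93A as reported, and it was not computed under the other settings. Since the age difference took part in the choice of the genes, nothing is read from these counts. Detection in at least 3 arrays of a group rose from 4 to 7 probes with the mark of a significant signal and was 3 at 1.5 times the background. The causes were not tested.

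Signs turned for these values. Htr7 at 40 days became -0.0030 with bright backgrounds kept and ran from -0.027 to 0.079 when arrays were left out. At 80 days it became -0.0023 with processed signals and -0.063 without normalization within arrays. The difference between the ages for Htr7 became -0.50, -0.080 and -0.025 with processed signals, without normalization within arrays and with Cy3 alone, and ran from -0.019 to 0.096 when arrays were left out. Htr2c A_52_P487454 at 80 days became -0.084 with bright backgrounds kept and ran from -0.0020 to 0.14. Htr2c A_51_P370810 at 40 days became -0.0057 without background subtraction and ran from -0.033 to 0.093, and its difference between the ages became 0.00010 and ran from -0.11 to 0.020. Htr3a at 80 days, -0.25 as reported, became 0.13 with processed signals, and its age differences of 0.62 in WT and 0.20 in SOD1G93A became -0.030 and -0.41.

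The arrays of a slide share a replicate number but deviated together in no steady way (correlations -0.064 to 0.20), and 6 of 16 arrays were closest to one of their own slide. The replicate block changed no call other than that of Htr3a at 80 days (-0.25, limma adjusted p = 0.624). Over all probes the calls at 40 days were 963 as reported, 249 with bright backgrounds kept, 554 with Cy3 alone, 538 in the matrix of the authors, 1900 without the filter and 725 to 1913 when arrays were left out. At 80 days they were 1482, 2420 without the filter and 977 to 1853 when arrays were left out, and for the difference between the ages 1475, 792, 983 and 2473 with bright backgrounds kept, with Cy3 alone and without the filter.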
